A study of Mus musculus with 6 samples.

Results

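Collagen chain genes encode the polypeptides that wind around each other into the triple helices of collagen. They were taken here as every gene whose name is Col, a number, the letter a and a second number, such as Col1a1. This gave 44 of the 34745 genes listed for cultured lung mesenchymal stromal cells (LMSCs) of tumor-bearing mice. By the kind of collagen they build, 11 are fibrillar, 8 are basement-membrane, 9 are FACIT (fibril-associated collagens with interrupted triple helices) and 16 are other collagens, among them the beaded-filament, network-forming and membrane-spanning ones.

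The cells came from the lungs of female MMTV-PyMT mice on the FVB/N background, in which a mammary tumor virus promoter drives the polyoma middle T antigen, so the transgene acts mainly in mammary epithelium and the lung stroma of every group carries it without being its target. The mice were at the adenoma stage (A-LMSC, labelled 6 to 7 weeks of age), the pre-metastatic stage (PM-LMSC, 9 to 10 weeks) or the metastatic stage (M-LMSC, 13 to 14 weeks), and the study's methods give somewhat older ages for the first and second of these. No group received a treatment, stage and age changed together, and there was no tumor-free group in this data set. Lung digests were plated, cells carrying CD45, the common surface protein of blood cells, were depleted with magnetic beads, and the adherent cells were sequenced at passage 3, with 2 libraries per stage and 6 in all. The labels only number the replicates, while the study describes the libraries of a stage as coming from different mice. The p-values rest on the spread between libraries of the same stage, pooled over the stages and drawn towards that of other genes.

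Collagen is made and exported mainly by fibroblasts and other mesenchymal cells. Its chains are hydroxylated and glycosylated in the endoplasmic reticulum, fold into trimers with the help of dedicated chaperones, and are trimmed and cross-linked outside the cell. In the lung, fibrillar collagens give the airway walls and interstitium their tensile strength, and sheets of type IV collagen underlie the alveolar epithelium and the capillary endothelium.

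Levels are given as FPKM, the number of sequenced fragments per kilobase of transcript, scaled to the total of the library, which allows genes of different length to be compared. The summed FPKM of a library was between 258249 and 271408. Sequencing depth is not given in the sources used here and was estimated from the spacing of the low values of genes with 1 annotated transcript. In the order of replicates 1 and 2, a value of 1 FPKM stood for an estimated 20.85 and 17.5 fragments per kilobase of transcript in A-LMSC, 14.75 and 15.9 in PM-LMSC, and 16.55 and 16.6 in M-LMSC. Between 96.9% and 97.1% of the low values of a library lay within 0.1 of a whole number of fragments at its estimate. At 1 FPKM a transcript of 1 kilobase therefore rested on an estimated 14.75 to 20.85 fragments, and a longer one on more. Counting error alone limits what can be read from genes near or under that level, most of all from short transcripts.

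The collagen chains spanned a very wide range of levels. In the mean of the 6 libraries, 6 chains were at 100 FPKM or more, 7 were between 10 and 100, 6 were between 1 and 10, 12 were between 0.1 and 1, and 13 were under 0.1. The 19 chains with a mean of at least 1 FPKM were tested, made up of 6 fibrillar, 5 basement-membrane, 3 FACIT and 5 other chains, and the remaining 25 are described by their values. Col1a1 was the most abundant chain and ranked between 10 and 39 among all genes of a library. The 5 most abundant chains, Col1a1, Col5a2, Col1a2, Col4a1 and Col3a1, held between 78.0% and 83.9% of the summed collagen FPKM.

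**Figure D1:**
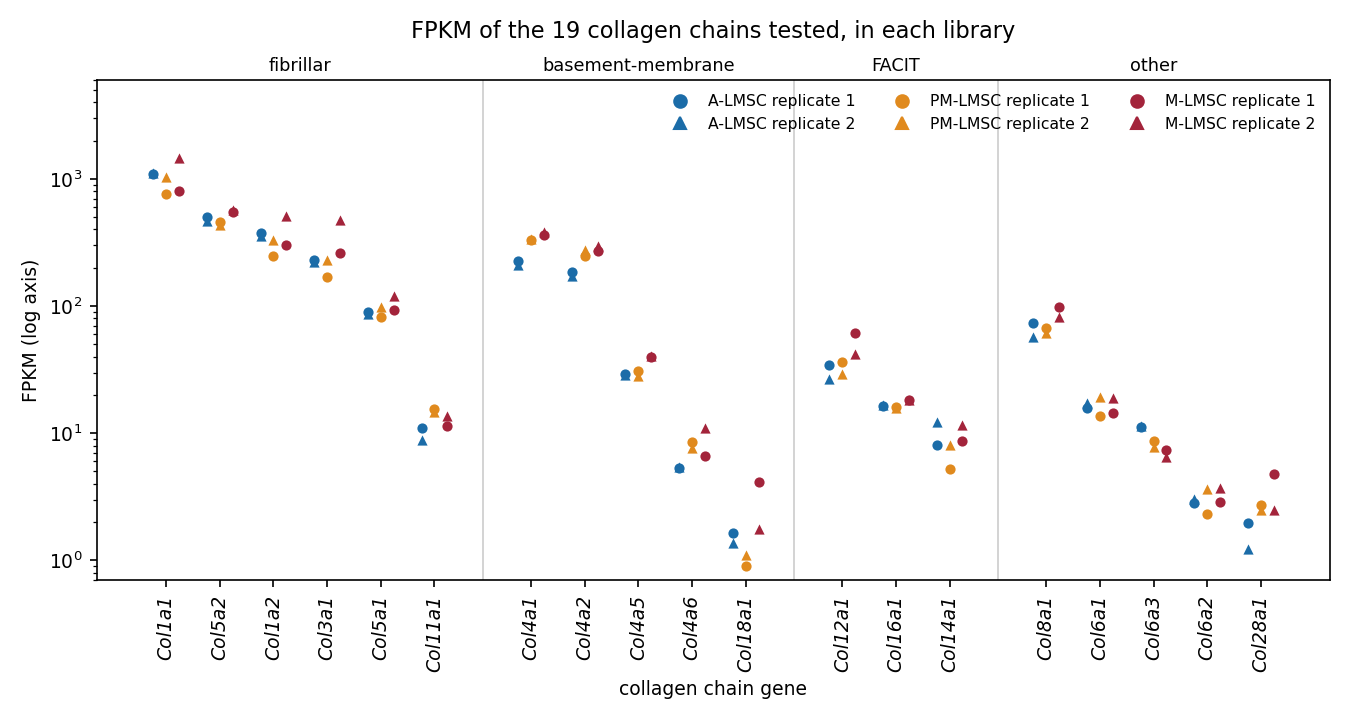
FPKM on a log axis of the 19 collagen chains with a mean of at least 1 FPKM, ordered by class and by mean level; each symbol is 1 library, with the stage given by color and the replicate by shape. The 6 chains at 100 FPKM or more are fibrillar or basement-membrane chains, and M-LMSC replicate 2 lies well above M-LMSC replicate 1 for Col1a1, Col1a2 and Col3a1.

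The label of the cells was checked against lists of marker genes. All 11 mesenchymal markers had a mean of at least 1 FPKM, and their summed FPKM was 1712 and 1686 in A-LMSC, 1668 and 1752 in PM-LMSC, and 1914 and 1507 in M-LMSC. S100a4 was the most abundant of them, and Pdgfra, a receptor that marks lung fibroblasts, was listed at 9.11 and 9.67, 6.31 and 6.69, and 8.60 and 9.50 FPKM in the same order. Smooth muscle and pericyte markers were far more abundant, and 8 of 9 had a mean of at least 1 FPKM. Their sum was 10051 and 9970 FPKM in A-LMSC, 9757 and 10334 in PM-LMSC, and 8895 and 8839 in M-LMSC, led by Acta2, the smooth muscle actin of contractile cells and myofibroblasts. Acta2 alone stood at 6311 and 6214, 5568 and 5803, and 5246 and 4986 FPKM. The cells therefore expressed the mesenchymal list of their label together with a contractile one.

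Markers of other cell types were mostly near 0. None of the 11 epithelial markers had a mean of 1 FPKM, and their sum was 0.413 and 1.62 in A-LMSC, 1.02 and 0.852 in PM-LMSC, and 2.75 and 4.17 in M-LMSC. Krt14, a keratin of basal cells, was the most abundant of them at no more than 1.47 FPKM, and Epcam, an adhesion molecule of epithelial cells, was listed at 0 in both A-LMSC and both PM-LMSC libraries and at 0.326 and 0.473 in M-LMSC. Among 8 endothelial markers, Kdr, a receptor for vascular growth factor, was the only one with a mean of at least 1 FPKM. The sum of the list was 1.65 and 1.66 in A-LMSC, 1.61 and 1.73 in PM-LMSC, and 2.72 and 2.54 in M-LMSC, where M-LMSC was above the rest, as for the epithelial list. Kdr made up most of the endothelial sum, at 1.11 and 1.17 in A-LMSC and 2.23 and 2.31 in M-LMSC. Of the 8 markers, 3 were higher and 2 lower in both M-LMSC libraries than in both A-LMSC libraries. Over all genes tested these shares were 27.1% and 24.4%. Among 7 chondrocyte markers only Sox9 had a mean of at least 1 FPKM, and the sum was between 3.31 and 4.53 FPKM with all stages overlapping. Among 5 Schwann cell markers only Mbp did, and the sum was 2.17 and 2.39, 2.77 and 3.41, and 3.91 and 4.28 FPKM, in order of stage with no overlap. Of 6 adipocyte markers, Fabp4 and Pparg had a mean of at least 1 FPKM, and the list's sum was between 5.40 and 7.99 FPKM.

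The mesothelial and the haematopoietic list were at higher levels. Of 9 mesothelial markers, 8 had a mean of at least 1 FPKM, and their sum was 125 and 184 in A-LMSC, 307 and 426 in PM-LMSC, and 208 and 509.6 in M-LMSC, so both later stages lay above A-LMSC. The most abundant was Upk1b, an uroplakin of the mesothelial surface, at 63.8 and 95.02, 167 and 221, and 106 and 257 FPKM. Muc16, a mucin of mesothelial cells, was listed at 0 and 0.110 in A-LMSC, 0.262 and 0.243 in PM-LMSC, and 0.175 and 0.349 in M-LMSC. In contrast, Krt19, a keratin of mesothelial and epithelial cells, was lower in M-LMSC, at 4.92 and 4.49 FPKM against 13.8 and 17.3 in A-LMSC, and this was past limma's threshold at an adjusted p of 0.0395. Of 10 haematopoietic markers, 6 had a mean of at least 1 FPKM, and their sum was 133 and 124 in A-LMSC, 168 and 74.5 in PM-LMSC, and 403 and 289.8 in M-LMSC. Lyz2, the lysozyme of macrophages and neutrophils, made up most of that sum, while Ptprc, which encodes the depleted CD45, was listed at no more than 0.0987 FPKM in any library. All 10 haematopoietic markers, 4 of them under the level tested, were higher in both M-LMSC libraries than in both A-LMSC libraries, against 27.1% of all genes tested. In bulk RNA, fewer cells of a type and less RNA per cell cannot be told apart, for these lists as for the collagen chains.

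Summed over all 44 chains, the collagen level was 2915 and 2809 FPKM in A-LMSC, 2506.5 and 2946 in PM-LMSC, and 2928 and 4078 in M-LMSC. M-LMSC replicate 2 stood well above the other 5 libraries, M-LMSC replicate 1 was barely above the higher A-LMSC library, and the PM-LMSC libraries lay on either side of the A-LMSC ones. As a share of the summed FPKM of the library, this was 1.09% and 1.05%, 0.943% and 1.09%, and 1.13% and 1.54%. The ratio of the stage means was 1.22 for M-LMSC over A-LMSC and 0.953 for PM-LMSC over A-LMSC. Without M-LMSC replicate 2, the first ratio was 1.02. Sums and ratios are given as values without a test, since an exact permutation test of 2 libraries against 2 cannot go below p = 0.333.

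The basement-membrane chains were the class with the clearest order of stages. Their sum was 445 and 418 FPKM in A-LMSC (432 ± 19.0, SD, n = 2), 619.8 and 649 in PM-LMSC (635 ± 20.9), and 681 and 729 in M-LMSC (705 ± 34.0). No stages overlapped, with A-LMSC lowest and M-LMSC highest. The fibrillar sum had no such order, at 2304 and 2243 FPKM in A-LMSC, 1733 and 2147 in PM-LMSC, and 2029 and 3161 in M-LMSC. Both PM-LMSC libraries were below both A-LMSC libraries, whereas the M-LMSC libraries fell on either side of them. FACIT chains summed to 59.4 and 55.8, 57.7 and 53.4, and 89.3 and 72.2 FPKM, and the other chains to 107 and 91.4, 95.9 and 96.0, and 129 and 115 FPKM. In both of these classes the M-LMSC libraries were above all of the rest, and the A-LMSC and PM-LMSC libraries overlapped. This rested on the most abundant chain of each. Without Col12a1 the FACIT sum was 25.1 and 29.2, 21.6 and 24.3, and 27.5 and 30.4 FPKM, so M-LMSC overlapped A-LMSC. Without Col8a1 the sum of the other chains was 33.2 and 34.3, 28.4 and 34.2, and 31.0 and 33.6 FPKM, and all stages overlapped. Without Col4a1 the basement-membrane sum kept its order, at 220.1 and 208, 288 and 311, and 321 and 349 FPKM. What was left was mostly Col4a2. Together Col4a1 and Col4a2 held most of the class sum, at 409 and 382, 578 and 611, and 629 and 674 FPKM. The order of this class was therefore largely that of these chains. Basement-membrane chains made up 15.3% and 14.9% of the collagen sum in A-LMSC, 24.7% and 22.0% in PM-LMSC, and 23.3% and 17.9% in M-LMSC.

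**Figure D2:**
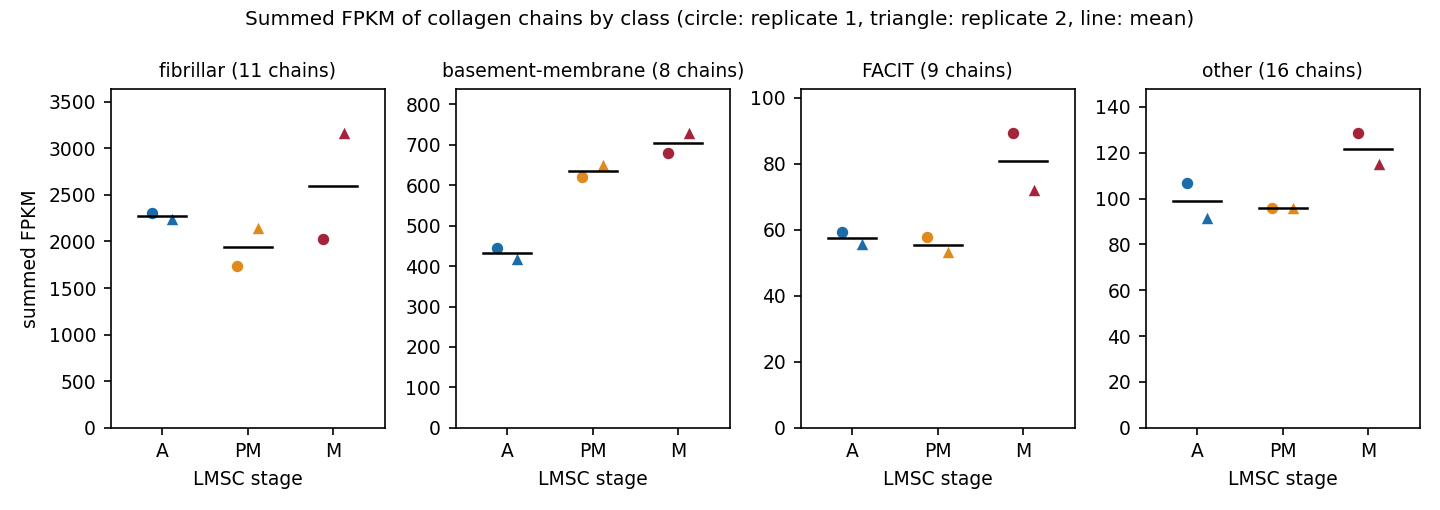
Summed FPKM of the collagen chains of each class by LMSC stage, with its own linear axis from 0 for each class; circles are replicate 1, triangles are replicate 2 and lines are the means of 2 libraries. The basement-membrane sum has no overlap between any stages, and the fibrillar sum of M-LMSC ranges from 2029 to 3161.

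Changes of single chains were tested with limma on log2(FPKM + 1) over the 10279 genes whose mean reached 1 FPKM. Adjustment of p-values (Benjamini-Hochberg) ran over all of these genes, and a gene was called at an adjusted p under 0.05. Fold changes below are on this log2 scale, each with its standard error, and the added 1 understates the change of chains at a few FPKM. Since same-numbered libraries of different stages deviated together, a second fit that also takes out the difference between replicates 1 and 2 (the block) is given where it changes a call. The comparisons share libraries, so they are not independent of each other.

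The first comparison asks how the cells differed before metastases were present, between PM-LMSC and A-LMSC. The basement-membrane chains Col4a1, Col4a2 and Col4a6, the fibrillar chain Col11a1 and Col28a1 were higher in both PM-LMSC libraries, and 6 chains, among them those of type I collagen, were lower in both. None of the 19 chains passed limma's threshold, as 0.0389% of all genes did, and with the block again none did, against 0.292% of all genes. At an unadjusted p under 0.05 there were 4 chains, Col11a1, Col4a1 and Col4a2 higher and Col6a3 lower, where 6.53% of all genes reached this. The 5 chains higher in both PM-LMSC libraries than in both A-LMSC libraries compare with 19.6% of all genes, and the 6 that were lower (Col16a1, Col18a1, Col1a1, Col1a2, Col5a2 and Col6a3) with 19.7%. The median log2 fold change was -0.01 over the 19 chains and 0.01 over all genes tested, and by class it was 0.51 for the basement-membrane, -0.16 for the fibrillar, -0.06 for the FACIT and -0.01 for the other chains.

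The second comparison, between M-LMSC and A-LMSC, spans the whole course from adenoma to metastasis. Most collagen chains were higher in both M-LMSC libraries, including every tested basement-membrane chain, and Col6a3 was lower in both. None of the 19 chains passed limma's threshold without the block, as 0.0681% of all genes did. With the block 5 chains did, of which Col4a1, Col4a2, Col12a1 and Col28a1 were higher and Col6a3 was lower, against 3.92% of all genes. At an unadjusted p under 0.05 there were 8 chains, where 14.6% of all genes reached this, namely those 5 and Col4a5, Col4a6 and Col8a1, all of these higher. In all, 13 chains were higher in both M-LMSC libraries than in both A-LMSC libraries, against 27.1% of all genes, and 1 was lower in both, against 24.4%. The 13 were 5 of 5 basement-membrane, 4 of 6 fibrillar, 2 of 3 FACIT and 2 of 5 other chains. The median log2 fold change was 0.32 over the chains, with 16 of 19 above 0. Over all genes tested it was 0.03, with 5618 of 10279 above 0. Without M-LMSC replicate 2 the chains' median was 0.20, and 1 of 19 chains, Col18a1, was called, as 0.876% of all genes were.

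The third comparison sets M-LMSC against PM-LMSC, that is, after against before metastases appeared in the lung. All 3 tested FACIT chains and the fibrillar chains Col3a1 and Col5a2 were higher in both M-LMSC libraries, while Col11a1 and Col6a3 were lower in both. None of the 19 chains passed limma's threshold, as 0.0292% of all genes did, and none did with the block, against 0.418% of all genes. At an unadjusted p under 0.05 there were 6 chains, all higher (Col12a1, Col18a1, Col3a1, Col4a5, Col5a2 and Col8a1), where 8.94% of all genes reached this. The 9 chains higher in both M-LMSC libraries compare with 17.8% of all genes, and the 2 that were lower with 16.7%. The median log2 fold change was 0.30 over the chains, with 17 of 19 above 0. Over all genes tested it was 0.00, with 5078 of 10279 above 0. Without M-LMSC replicate 2 the chains' median was 0.10, 13 of 19 were above 0 and 1, Col18a1, was called, as 0.243% of all genes were.

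**Figure D3:**
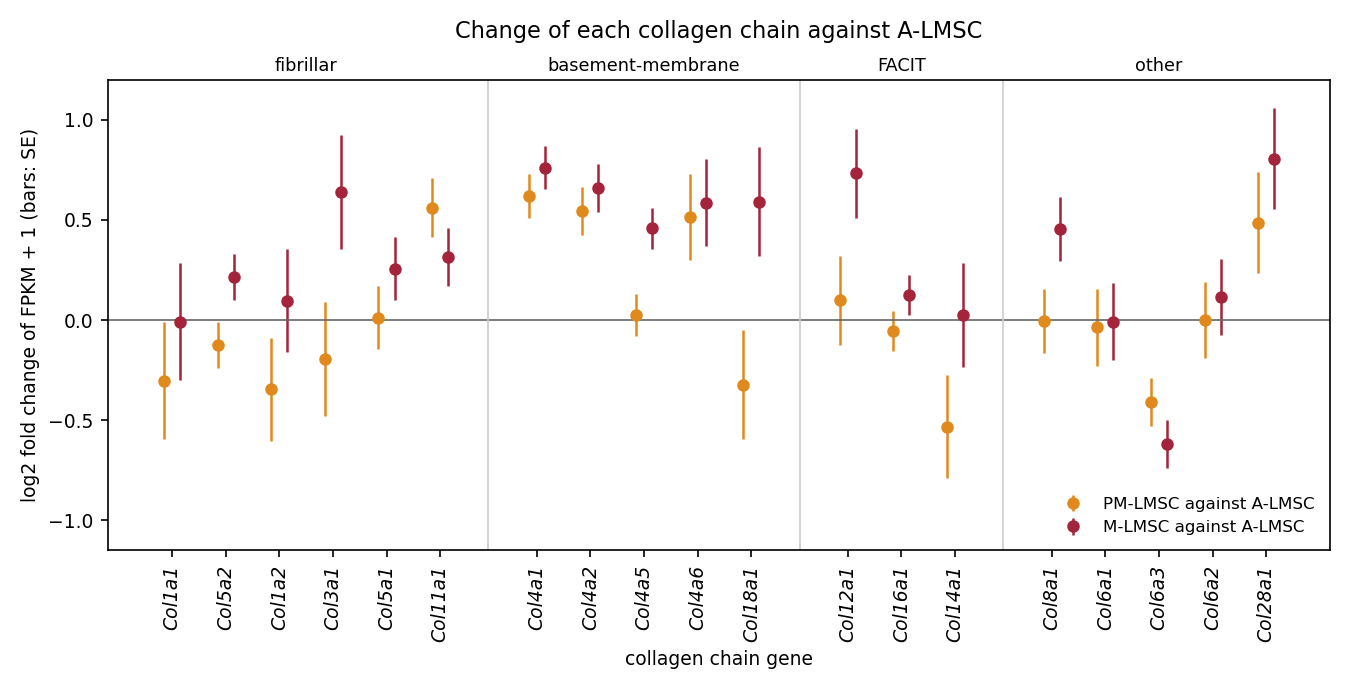
Log2 fold change of FPKM + 1 against A-LMSC for the 19 tested collagen chains, with PM-LMSC and M-LMSC in different colors; points are limma estimates from 2 libraries per stage and bars are standard errors without the block. Col4a1 and Col4a2 lie above 0 at both later stages and Col6a3 below 0 at both; the sign of Col1a1 in M-LMSC turns with quantile normalization and that of Col14a1 with centring on the library median.

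Type IV collagen forms the network of basement membranes, and Col4a1 and Col4a2 encode the chains of its most widespread trimer. Col4a1 (ENSMUSG00000031502) was listed at 225 and 210.3 FPKM in A-LMSC, 332 and 338 in PM-LMSC, and 359.8 and 379 in M-LMSC. The replicates of a stage were close together, A-LMSC was lowest, M-LMSC was highest and no stages overlapped. Among all genes of a library, Col4a1 ranked 172 and 185 in A-LMSC and 91 and 92 in M-LMSC. M-LMSC over A-LMSC gave a log2 fold change of 0.76 ± 0.11 (limma adjusted p = 0.0840), and with the block the adjusted p was 0.0204, the lowest of 12 alternatives, which reached up to 0.604. For PM-LMSC over A-LMSC it was 0.62 ± 0.11 (limma adjusted p = 0.285), which was not past the threshold.

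Col4a2 (ENSMUSG00000031503), the partner of Col4a1 in that trimer, was listed at 184 and 172 FPKM in A-LMSC, 247 and 274 in PM-LMSC, and 269 and 295 in M-LMSC. Both later stages were above A-LMSC, and they overlapped each other. Its log2 fold change was 0.66 ± 0.12 in M-LMSC over A-LMSC (limma adjusted p = 0.101, and 0.0284 with the block, the lowest of 12 alternatives, which reached up to 0.657). In PM-LMSC over A-LMSC it was 0.55 ± 0.12 (limma adjusted p = 0.359).

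Col4a1, Col4a2 and Col4a6 were above A-LMSC in both libraries of each later stage, and Col4a5 in M-LMSC only. Some marker lists were higher at these stages too. In M-LMSC against A-LMSC, 6 of the 8 tested mesothelial markers and 5 of the 6 tested haematopoietic markers were called higher with the block, and 1 mesothelial marker, Krt19, was called lower. The only other markers called with the block in this comparison were the endothelial Kdr, higher at 1.11 and 1.17, 1.31 and 1.44, and 2.23 and 2.31 FPKM (limma adjusted p = 0.0285 with the block), and the pericyte marker Cspg4, lower at 13.4 and 14.1, 14.7 and 14.9, and 6.22 and 8.59 FPKM (0.0250). In all, 14 of 38 tested markers were called with the block, 12 higher and 2 lower, against 3.92% of all genes. The mesothelial and haematopoietic lists had a higher sum in both M-LMSC libraries than in both A-LMSC libraries, while in PM-LMSC against A-LMSC this held for the mesothelial list and not for the haematopoietic one. In that comparison all 8 tested mesothelial markers were at an unadjusted p under 0.05 in limma, 7 higher and 1 lower, where 6.53% of all genes reached this. With the block 2 of them, Bnc1 and Lrrn4, were called higher (limma adjusted p = 0.0369 and 0.0417), against 0.292% of all genes. Among the M-LMSC libraries the mesothelial sum was 208 and 509.6 FPKM where Col4a1 was at 359.8 and 379. In the same libraries Col4a2 was at 269 and 295, Col4a5 at 39.9 and 40.3, and Col4a6 at 6.57 and 11.1 FPKM. Among the fibrillar chains there, Col1a1 was at 808 and 1472, Col1a2 at 303 and 507, and Col3a1 at 262 and 473 FPKM. The fibrillar chain Col5a2 was at 550.3 and 574, Col5a1 at 93.0 and 120.1, and Col11a1 at 11.5 and 13.6 FPKM. Col12a1, Col16a1, Col8a1, Col6a3, Col18a1 and Col28a1 were lower in replicate 2 than in replicate 1. The haematopoietic sum was also lower there, at 403 and 289.8 FPKM. The part of these lists in the collagen results was not tested.

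The other type IV chains were less abundant. Col4a5 (ENSMUSG00000031274), a chain of the basement membranes of kidney, lung and smooth muscle, was listed at 29.0 and 28.8 FPKM in A-LMSC, 30.9 and 28.0 in PM-LMSC, and 39.9 and 40.3 in M-LMSC. M-LMSC stood apart from both earlier stages, which overlapped. In M-LMSC over A-LMSC its log2 fold change was 0.46 ± 0.10 (limma adjusted p = 0.134). Col4a6 (ENSMUSG00000031273), its partner in smooth muscle basement membranes, was listed at 5.33 and 5.40 FPKM in A-LMSC, 8.51 and 7.68 in PM-LMSC, and 6.57 and 11.1 in M-LMSC. All later-stage libraries were above A-LMSC, and the PM-LMSC values lay within the range of M-LMSC. Its log2 fold change was 0.51 ± 0.22 in PM-LMSC over A-LMSC (limma adjusted p = 0.769) and 0.59 ± 0.22 in M-LMSC over A-LMSC (0.292), where it was 0.92 without M-LMSC replicate 1 and 0.25 without M-LMSC replicate 2. Col4a3 and Col4a4, which with Col4a5 form the trimer of mature glomerular and alveolar basement membranes, were nearly absent, at no more than 0.124 and 0.292 FPKM.

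Type XV and type XVIII collagens sit at basement membranes and carry glycosaminoglycan chains, and the latter is the source of endostatin. Col18a1 (ENSMUSG00000001435) was listed at 1.64 and 1.38 FPKM in A-LMSC, 0.899 and 1.11 in PM-LMSC, and 4.13 and 1.78 in M-LMSC. PM-LMSC was lowest and M-LMSC highest without overlap, and M-LMSC replicate 1 was more than 2 times as high as replicate 2. M-LMSC over PM-LMSC gave a log2 fold change of 0.91 ± 0.27 (limma adjusted p = 0.412). Without M-LMSC replicate 2 it was 1.36 and the adjusted p was 0.0400, in a range of 0.0400 to 0.750 over 12 alternatives. Over A-LMSC the log2 fold change of M-LMSC was 0.59 ± 0.27 (limma adjusted p = 0.371), and without that library 1.03 and 0.0484, in a range of 0.0484 to 0.960. Without M-LMSC replicate 1 instead, it was 0.47 over PM-LMSC and 0.15 over A-LMSC. The single M-LMSC library left in such a fit is assumed to vary like the other stages. Col15a1 was under the level tested, at 0.231 and 0.312 FPKM in A-LMSC, 0.666 and 0.767 in PM-LMSC, and 1.28 and 1.12 in M-LMSC. No stages overlapped, with A-LMSC lowest.

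Type I collagen, the main collagen of interstitial fibrils, is built of Col1a1 and Col1a2 chains. Col1a1 (ENSMUSG00000001506) was listed at 1092 and 1103 FPKM in A-LMSC, 761 and 1039 in PM-LMSC, and 808 and 1472 in M-LMSC. The A-LMSC replicates were nearly equal, PM-LMSC was below them, and the M-LMSC replicates lay on either side of A-LMSC, the lower of them within the PM-LMSC range. In PM-LMSC over A-LMSC the log2 fold change was -0.30 ± 0.29 (limma adjusted p = 0.889), and it was -0.08 without PM-LMSC replicate 1 and -0.53 without PM-LMSC replicate 2. In M-LMSC over A-LMSC it was -0.01 ± 0.29 (0.990), and its sign depended on a single library, since it was 0.42 without M-LMSC replicate 1 and -0.44 without M-LMSC replicate 2. It also turned to 0.18 with quantile normalization. Col1a2 (ENSMUSG00000029661) was listed at 375 and 358 FPKM in A-LMSC, 249.6 and 332 in PM-LMSC, and 303 and 507 in M-LMSC, the same order of libraries within PM-LMSC and M-LMSC as for Col1a1. For Col1a2 the log2 fold change was -0.35 ± 0.26 in PM-LMSC over A-LMSC (limma adjusted p = 0.859), -0.14 without PM-LMSC replicate 1 and -0.55 without PM-LMSC replicate 2. In M-LMSC over A-LMSC it was 0.10 ± 0.26 (0.872), 0.47 without M-LMSC replicate 1 and -0.28 without M-LMSC replicate 2.

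Type III collagen, a homotrimer that co-assembles with type I in lung and vessel walls, is encoded by Col3a1 (ENSMUSG00000026043). It was listed at 229 and 221 FPKM in A-LMSC, 168 and 230.2 in PM-LMSC, and 262 and 473 in M-LMSC. M-LMSC was above both other stages, which overlapped, and M-LMSC replicate 2 was far above replicate 1. Its log2 fold change was 0.64 ± 0.29 in M-LMSC over A-LMSC (limma adjusted p = 0.361) and 0.84 ± 0.29 in M-LMSC over PM-LMSC (0.474). Without M-LMSC replicate 2 these were 0.21 and 0.41, and without M-LMSC replicate 1 they were 1.07 and 1.26.

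Types V and XI are minor fibrillar collagens that help to start fibrils and set their diameter. Col5a2 (ENSMUSG00000026042), the second most abundant chain, was listed at 506 and 464 FPKM in A-LMSC, 457 and 432 in PM-LMSC, and 550.3 and 574 in M-LMSC. PM-LMSC was lowest and M-LMSC highest, with no overlap between any stages. For Col5a2 the log2 fold change was -0.12 ± 0.12 in PM-LMSC over A-LMSC (limma adjusted p = 0.889), with -0.06 and -0.19 without A-LMSC replicates 1 and 2, and 0.21 ± 0.12 in M-LMSC over A-LMSC (0.430). With quantile normalization the M-LMSC over A-LMSC value of Col5a2 was 0.34. Its partner Col5a1 (ENSMUSG00000026837) was at 90.1 and 86.5 FPKM in A-LMSC, 81.3 and 97.6 in PM-LMSC, and 93.0 and 120.1 in M-LMSC, where M-LMSC was above A-LMSC and overlapped PM-LMSC. Col11a1 (ENSMUSG00000027966), better known from cartilage and from activated fibroblasts, was at 11.0 and 8.79 FPKM in A-LMSC, 15.5 and 14.6 in PM-LMSC, and 11.5 and 13.6 in M-LMSC. It was the tested fibrillar chain with its highest level in PM-LMSC, and no stages overlapped. For Col11a1 the log2 fold change was 0.56 ± 0.15 in PM-LMSC over A-LMSC (limma adjusted p = 0.457) and -0.25 ± 0.15 in M-LMSC over PM-LMSC (0.672), which was -0.13 without M-LMSC replicate 1.

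FACIT chains do not form fibrils themselves but lie on the surface of fibrils. Col12a1 (ENSMUSG00000032332), which binds type I fibrils in load-bearing tissue, was listed at 34.3 and 26.6 FPKM in A-LMSC, 36.1 and 29.0 in PM-LMSC, and 61.9 and 41.8 in M-LMSC. M-LMSC was above both other stages, and replicate 1 was above replicate 2 at every stage. M-LMSC over A-LMSC gave a log2 fold change of 0.73 ± 0.22 (limma adjusted p = 0.225), with a standard error of 0.11 and an adjusted p of 0.0231 with the block, the lowest of 12 alternatives, which reached up to 0.929. Over PM-LMSC it was 0.64 ± 0.22 (0.481). Without M-LMSC replicate 1 it was 0.46 over A-LMSC and 0.36 over PM-LMSC.

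Col14a1 (ENSMUSG00000022371), a FACIT chain that limits fibril growth, was at 8.04 and 12.2 FPKM in A-LMSC, 5.23 and 8.13 in PM-LMSC, and 8.75 and 11.6 in M-LMSC. Here replicate 2 was above replicate 1 at every stage, and M-LMSC was above PM-LMSC and within the range of A-LMSC. Each PM-LMSC library was below the A-LMSC library of the same number. In PM-LMSC over A-LMSC the log2 fold change was -0.53 ± 0.26 (limma adjusted p = 0.811, and 0.104 with the block). This was the lowest of the 19 tested chains in that comparison, although the stages overlapped. The log2 fold change was 0.56 ± 0.26 in M-LMSC over PM-LMSC (limma adjusted p = 0.604), and 0.28 without PM-LMSC replicate 1. It was 0.03 ± 0.26 in M-LMSC over A-LMSC (0.969), where it turned to -0.02 with centring on the library median, to -0.25 without A-LMSC replicate 1 and to -0.16 without M-LMSC replicate 2. Col16a1 (ENSMUSG00000040690), found on fibrils and at cell attachments, hardly varied, at 16.4 and 16.7 FPKM in A-LMSC, 16.0 and 15.8 in PM-LMSC, and 18.2 and 18.1 in M-LMSC. Its replicates lay so close that no stages overlapped, although the log2 fold change of M-LMSC over A-LMSC was only 0.13 ± 0.10 (limma adjusted p = 0.570). With centring on the library median it was 0.08.

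Type VI collagen forms beaded microfilaments around cells, from trimers of Col6a1, Col6a2 and, most often, Col6a3. Col6a3 (ENSMUSG00000048126) was listed at 11.1 and 11.3 FPKM in A-LMSC, 8.65 and 7.78 in PM-LMSC, and 7.43 and 6.50 in M-LMSC. A-LMSC was highest, M-LMSC was lowest and no stages overlapped. The log2 fold change of M-LMSC over A-LMSC was -0.62 ± 0.12 (limma adjusted p = 0.114), and 0.0296 with the block, the lowest of 12 alternatives, which reached up to 0.657. It was -0.41 ± 0.12 in PM-LMSC over A-LMSC (limma adjusted p = 0.525) and -0.21 ± 0.12 in M-LMSC over PM-LMSC (0.667), which was -0.13 without M-LMSC replicate 2. Its partners showed no such order. Col6a1 (ENSMUSG00000001119) was at 15.9 and 17.3 FPKM in A-LMSC, 13.6 and 19.1 in PM-LMSC, and 14.5 and 18.8 in M-LMSC, and Col6a2 (ENSMUSG00000020241) was at 2.85 and 3.05, 2.33 and 3.66, and 2.87 and 3.73 FPKM. For both, replicate 2 was above replicate 1 at every stage and all stages overlapped. In M-LMSC over A-LMSC it was -0.01 ± 0.19 for Col6a1 (limma adjusted p = 0.987), and it was 0.05 without A-LMSC replicate 2, 0.17 without M-LMSC replicate 1 and -0.19 without M-LMSC replicate 2. For Col6a2 it was 0.12 ± 0.19 (limma adjusted p = 0.779), 0.26 without M-LMSC replicate 1 and -0.03 without M-LMSC replicate 2.

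Col8a1 (ENSMUSG00000068196), a short chain of the hexagonal networks made by vascular cells, was listed at 73.5 and 57.2 FPKM in A-LMSC, 67.5 and 61.8 in PM-LMSC, and 97.6 and 81.5 in M-LMSC. M-LMSC was above both other stages, which overlapped. The log2 fold change was 0.45 ± 0.16 in M-LMSC over A-LMSC (limma adjusted p = 0.272) and 0.46 ± 0.16 in M-LMSC over PM-LMSC (0.478). Without A-LMSC replicate 2 the former was 0.28. Col28a1 (ENSMUSG00000068794), a chain with von Willebrand factor domains known from peripheral nerve, was at 1.96 and 1.22 FPKM in A-LMSC, 2.71 and 2.48 in PM-LMSC, and 4.75 and 2.50 in M-LMSC. Both later stages were above A-LMSC, and M-LMSC replicate 2 lay between the PM-LMSC libraries. The log2 fold change of M-LMSC over A-LMSC was 0.81 ± 0.25 (limma adjusted p = 0.235), and 0.0433 with the block, the lowest of 12 alternatives, which reached up to 0.929. Without M-LMSC replicate 1 it was 0.45. In PM-LMSC over A-LMSC it was 0.49 ± 0.25 (limma adjusted p = 0.838), and 0.28 without A-LMSC replicate 2.

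The 25 chains under the level tested had means between 0.00289 and 0.951 FPKM, and no single value was above 1.28. They were the fibrillar chains Col5a3, Col11a2, Col27a1, Col24a1 and Col2a1, the basement-membrane chains Col15a1, Col4a4 and Col4a3, the FACIT chains Col20a1, Col19a1, Col9a3, Col9a2, Col9a1 and Col22a1, and the other chains Col7a1, Col8a2, Col10a1, Col6a6, Col23a1, Col17a1, Col6a5, Col6a4, Col26a1, Col13a1 and Col25a1. None was listed at 0 in every library, and 8 were listed at 0 in at least 1. Col5a3, a chain of some type V trimers, was the highest of them in the mean, at 0.915 and 0.793 FPKM in A-LMSC, 0.822 and 0.974 in PM-LMSC, and 1.21 and 0.985 in M-LMSC. Col8a2, the partner of Col8a1, was at 0.0821 and 0.0611, 0.159 and 0.215, and 0.259 and 0.632 FPKM, with no overlap between stages and A-LMSC lowest. Col7a1, the chain of the anchoring fibrils under stratified epithelium, ran the other way, at 0.651 and 0.679 FPKM in A-LMSC, 0.574 and 0.489 in PM-LMSC, and 0.567 and 0.366 in M-LMSC, where both later stages were below A-LMSC and overlapped each other.

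The ratio between chains of 1 trimer shows whether partners kept their proportion. Col1a1 over Col1a2 was 2.91 and 3.08 in A-LMSC, 3.05 and 3.13 in PM-LMSC, and 2.67 and 2.90 in M-LMSC, a narrow range, in which both M-LMSC libraries were below all others. Col4a1 over Col4a2 was 1.22 and 1.22, 1.34 and 1.23, and 1.34 and 1.29, with both later stages above A-LMSC. Col6a1 over Col6a2 was 5.59 and 5.69, 5.85 and 5.23, and 5.04 and 5.05, with M-LMSC below all others. Col3a1 over Col1a1 sets type III against type I collagen and not partners of 1 trimer. This ratio was 0.210 and 0.200 in A-LMSC, 0.220 and 0.222 in PM-LMSC, and 0.324 and 0.321 in M-LMSC. The M-LMSC libraries, which differed most in the level of both chains, had nearly the same ratio, above all libraries of the earlier stages. Col6a1 over Col6a3 was 1.43 and 1.53 in A-LMSC, 1.58 and 2.46 in PM-LMSC, and 1.95 and 2.89 in M-LMSC, with A-LMSC below both later stages. Col4a5 over Col4a6 was 5.44 and 5.34, 3.64 and 3.65, and 6.07 and 3.64, where 1 M-LMSC library was above all others and the other was level with PM-LMSC. Col5a2 over Col5a1 ranged from 4.43 to 5.92 with all stages overlapping. Col4a1 over Col1a1, which sets basement-membrane against fibrillar collagen, was 0.206 and 0.191 in A-LMSC, 0.436 and 0.325 in PM-LMSC, and 0.445 and 0.258 in M-LMSC, so that both later stages were above A-LMSC.

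**Figure D4:**
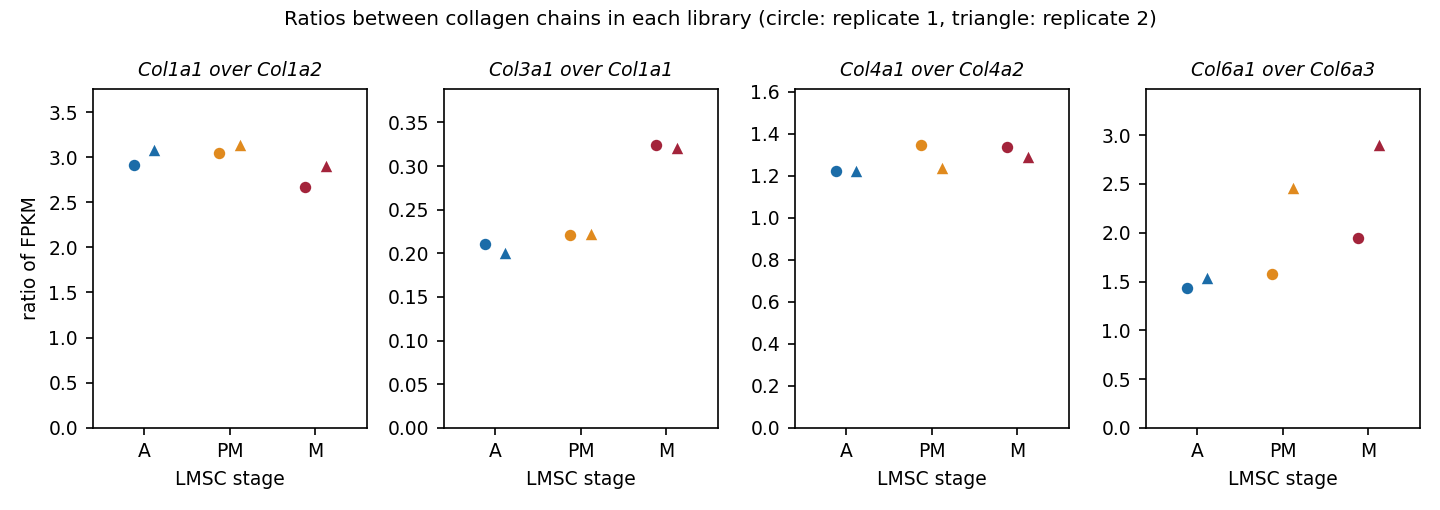
Ratio of FPKM between pairs of collagen chains by LMSC stage, each on its own linear axis from 0; circles are replicate 1 and triangles are replicate 2. Col3a1 over Col1a1 is 0.324 and 0.321 in M-LMSC and no more than 0.222 in the other libraries, while Col1a1 over Col1a2 stays between 2.67 and 3.13.

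Several chains are neighbours in the genome (GRCm38 coordinates from GENCODE M21). Col4a1 (chr8:11198423-11312826, minus strand) and Col4a2 (chr8:11312805-11449287, plus strand) lie head to head and overlap by 22 bases at their 5′ ends, and both were higher at both later stages. Col4a6 (chrX:141165403-141474076, minus strand) and Col4a5 (chrX:141475385-141689234, plus strand) are also head to head, 1308 bases apart, yet Col4a6 was above its A-LMSC level in both PM-LMSC libraries and Col4a5 was not. Col4a4 and Col4a3, 71 bases apart on chromosome 1, were both under the level tested. Col3a1 (chr1:45311538-45349706, plus strand) and Col5a2 (chr1:45374321-45503282, minus strand) are 24.6 kb apart, and Col6a2 and Col6a1 are 85.2 kb apart on chromosome 10. Col9a1 and Col19a1 on chromosome 1, and Col6a6, Col6a5 and Col6a4 on chromosome 9, are further neighbours within 100 kb and were all under the level tested.

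Some of these values may hold fragments of another gene, since exons overlap. Besides the overlap of Col4a1 and Col4a2, exons of Col4a2 overlap those of the antisense gene Gm15419 by 43 bases, and exons of Col5a1 overlap those of the antisense genes 2810430I11Rik and Gm13372 by 99 and 113 bases. Whether the counting used strand, which would separate these, is not given in the sources used here. Exons of Col3a1 overlap those of Gm47302 on the same strand, where strand would not separate them. The antisense genes near Col4a2 and Col5a1 were listed at no more than 0.254 and 1.39 FPKM. Stretches of at least 200 bases with at least 95% identity were shared by Col6a5 with Col6a6, Col26a1 with Srrm3, Col4a3 with C430014B12Rik, and Col9a3 with Tcfl5, and the values of these chains, none of which was tested, are uncertain.

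Genes that process collagen were listed by their step. Of 36, 31 had a mean of at least 1 FPKM, and none passed limma's threshold in any comparison without the block. In M-LMSC against A-LMSC, 5 of the 31 were at an unadjusted p under 0.05, all higher, where 14.6% of all genes reached this. With the block 2 were called higher, against 3.92% of all genes, and the median log2 fold change was 0.05 against 0.03 over all genes. The called ones belong to the hydroxylation step. Plod2, the lysyl hydroxylase of collagen telopeptides, was listed at 40.8 and 36.3 FPKM in A-LMSC, 50.9 and 43.1 in PM-LMSC, and 58.5 and 61.3 in M-LMSC, in order of stage with no overlap (log2 fold change 0.62 ± 0.13 in M-LMSC over A-LMSC, limma adjusted p = 0.117, and 0.0343 with the block). P4ha3, a catalytic subunit of prolyl hydroxylase, was at 6.01 and 4.72, 7.10 and 6.52, and 9.85 and 7.68 FPKM, also in order of stage (0.62 ± 0.16, limma adjusted p = 0.176, and 0.0337 with the block). The related subunit P4ha2 had the lowest fold change of the list, at 31.4 and 28.4, 18.1 and 22.7, and 22.7 and 25.1 FPKM (-0.31 ± 0.14, limma adjusted p = 0.367), followed by the lysyl hydroxylase Plod1 (-0.24 ± 0.18, 0.544).

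Of the later steps, the collagen chaperone Serpinh1 was the most abundant gene of the list, at 871 and 612 FPKM in A-LMSC, 778 and 652 in PM-LMSC, and 706 and 645 in M-LMSC, with all stages overlapping. Lox and Loxl2, oxidases that start cross-links between collagen molecules, were higher in both M-LMSC libraries than in all others. Lox was at 419 and 395, 489 and 404, and 633 and 511 FPKM, and Loxl2 at 72.6 and 69.2, 69.2 and 75.2, and 102 and 97.2 FPKM. Neither was called, with the block included. In PM-LMSC against A-LMSC, 3 of the 31 genes were at an unadjusted p under 0.05, all lower (6.53% of all genes), and in M-LMSC against PM-LMSC 6 were, all higher (8.94% of all genes), with none called with the block in either.

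Of 11 collagen receptors, 8 had a mean of at least 1 FPKM and none was called with limma in any comparison, with the block included; at an unadjusted p under 0.05 there were 2 in PM-LMSC against A-LMSC, 1 in M-LMSC against A-LMSC and 1 in M-LMSC against PM-LMSC, where 6.53%, 14.6% and 8.94% of all genes reached this. The median log2 fold change of M-LMSC over A-LMSC was 0.22. Itga11, the integrin subunit of fibroblasts that binds type I collagen, was listed at 18.2 and 4.44 FPKM in A-LMSC, 7.75 and 11.4 in PM-LMSC, and 36.5 and 31.2 in M-LMSC. M-LMSC stood clear of all other libraries, and the A-LMSC replicates differed more from each other than the PM-LMSC ones did (log2 fold change 1.77 ± 0.53, limma adjusted p = 0.224). Adgrg1, an adhesion receptor for type III collagen, was at 1.86 and 1.73, 2.78 and 3.88, and 2.25 and 3.45 FPKM (0.44 ± 0.19, 0.355). The lowest fold changes were those of Itga2, the subunit of another collagen-binding integrin (-0.29 ± 0.19, limma adjusted p = 0.508), and Mrc2, which takes up collagen fragments (-0.11 ± 0.17, 0.760). Itgb1, the common partner of these integrin subunits, was the most abundant at 335 and 301, 418 and 316, and 466 and 283 FPKM, with all stages overlapping.

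Of 8 collagen-degrading enzymes, 6 had a mean of at least 1 FPKM, and 2 of them, in opposite directions, were called in M-LMSC against A-LMSC with the block, against 3.92% of all genes, and none without it. Mmp2, a gelatinase that also cleaves type IV collagen, was listed at 60.5 and 61.5 FPKM in A-LMSC, 88.7 and 110.6 in PM-LMSC, and 86.7 and 155 in M-LMSC. Both later stages were above A-LMSC and overlapped each other (log2 fold change 0.92 ± 0.26, limma adjusted p = 0.209, and 0.0456 with the block). Mmp13, an interstitial collagenase, was at 9.88 and 10.7, 12.1 and 8.99, and 4.34 and 5.93 FPKM, with M-LMSC below all other libraries (-0.89 ± 0.18, limma adjusted p = 0.118, and 0.0458 with the block). Mmp14, the membrane-bound protease that activates Mmp2, was the most abundant, at 140.5 and 161, 169 and 192, and 159 and 226 FPKM (0.33 ± 0.19, 0.446). Mmp8, a collagenase of neutrophils, had the second lowest fold change, at 3.01 and 3.73, 2.29 and 1.64, and 3.13 and 2.87 FPKM (-0.12 ± 0.16, limma adjusted p = 0.723). In each comparison 2 of the 6 were at an unadjusted p under 0.05, where 6.53% of all genes reached this in PM-LMSC against A-LMSC, 14.6% in M-LMSC against A-LMSC and 8.94% in M-LMSC against PM-LMSC. The median log2 fold change of M-LMSC over A-LMSC was 0.05.

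Of 12 small leucine-rich proteoglycans and other fibril partners, 10 had a mean of at least 1 FPKM. In M-LMSC against A-LMSC, none was called without the block, 3 were called higher with it (3.92% of all genes were called), 4 were higher and 1 lower at an unadjusted p under 0.05 (14.6% of all genes), and the median log2 fold change was 0.44. Dcn, the proteoglycan decorin that coats type I fibrils, was listed at 66.4 and 50.7 FPKM in A-LMSC, 57.6 and 68.6 in PM-LMSC, and 117 and 141.2 in M-LMSC. Both M-LMSC libraries stood well above the rest (log2 fold change 1.13 ± 0.17, limma adjusted p = 0.0875, and 0.0239 with the block). Lum, the related lumican, was at 2.52 and 0.358, 0.815 and 1.03, and 6.44 and 7.90 FPKM, again with M-LMSC far above all others (1.90 ± 0.40, limma adjusted p = 0.118, and 0.0419 with the block). Podn, another member of the family, was at 1.91 and 2.71, 1.58 and 3.15, and 2.94 and 5.86 FPKM, where M-LMSC was above A-LMSC and overlapped PM-LMSC (0.66 ± 0.32, limma adjusted p = 0.398, and 0.0485 with the block). Tnxb, a tenascin that binds fibrils, was lower in both M-LMSC libraries than in both A-LMSC libraries, at 6.08 and 5.91, 4.72 and 6.17, and 4.32 and 4.71 FPKM (-0.34 ± 0.14, 0.341). Sparc, a collagen-binding glycoprotein, was the most abundant, at 1129.7 and 1148, 1041 and 1282, and 1228 and 1543 FPKM. In PM-LMSC against A-LMSC no gene of this list was at an unadjusted p under 0.05, and in M-LMSC against PM-LMSC 3 were, against 8.94% of all genes, with none called with the block in either.

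Promoter sequences were available for 35 of the 44 chains, 15 of them among the 19 tested (RefSeq, GRCm38.p6). The 250 bases before the annotated start were searched on both strands for 3 short motifs, none of which contains another: the CCAAT box (CCAAT or ATTGG), a GC box (GGGCGG or CCGCCC) and a TATA box (TATAAA or TTTATA). The CCAAT box letters were in 7 of the 15 tested chains and in 33.8% of the 32851 promoters of all genes. The GC box letters were in 10 of 15 and in 32.7% of all promoters, and the TATA box letters in 1 of 15, Col3a1, and in 12.4%. Col18a1 and Col6a2 had 2 windows each, and a chain was counted if any of its windows held the letters. Col18a1 held the CCAAT and GC box letters in only 1 of its windows. The percentages count single promoters, so they are not in the same unit as the counts of chains. A match describes the letters only, and no match says only that the letters are not in this window. The windows of 4 chains free of annotated exons are shown with the motifs in capitals, because their levels followed different courses: Col3a1 (chr1:45311288-45311537, plus strand) was highest in M-LMSC, Col11a1 (chr3:114030290-114030539, plus strand) was highest in PM-LMSC, Col28a1 (chr6:8192618-8192867, minus strand) was called higher with the block and Col6a3 (chr1:90843972-90844221, minus strand) was called lower with the block in M-LMSC. Neither of the last 2 holds any of the motifs.
Col3a1: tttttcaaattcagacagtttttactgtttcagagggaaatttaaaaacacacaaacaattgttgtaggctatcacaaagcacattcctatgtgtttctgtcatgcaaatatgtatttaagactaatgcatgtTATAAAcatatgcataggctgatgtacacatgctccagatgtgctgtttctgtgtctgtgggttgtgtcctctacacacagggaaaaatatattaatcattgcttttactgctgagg
Col11a1: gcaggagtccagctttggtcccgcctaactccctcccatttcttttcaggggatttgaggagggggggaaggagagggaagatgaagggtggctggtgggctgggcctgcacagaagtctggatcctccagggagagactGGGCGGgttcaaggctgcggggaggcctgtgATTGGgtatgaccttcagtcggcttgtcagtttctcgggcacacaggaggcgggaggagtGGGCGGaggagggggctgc
Col28a1: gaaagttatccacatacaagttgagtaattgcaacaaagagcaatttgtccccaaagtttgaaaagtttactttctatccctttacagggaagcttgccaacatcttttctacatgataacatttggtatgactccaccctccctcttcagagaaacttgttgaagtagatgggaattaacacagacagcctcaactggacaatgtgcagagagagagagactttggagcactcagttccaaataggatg
Col6a3: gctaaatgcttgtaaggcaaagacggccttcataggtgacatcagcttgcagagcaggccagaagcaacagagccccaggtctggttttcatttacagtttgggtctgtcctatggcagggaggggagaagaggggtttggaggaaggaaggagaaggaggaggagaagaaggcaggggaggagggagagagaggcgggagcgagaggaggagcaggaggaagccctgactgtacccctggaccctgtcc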

How the data were processed

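The authors deposited FPKM values per gene and library. The submitters' processing notes name TopHat2 2.0.9 and the mm10 genome, and the counter and annotation are not given in the sources used here. All 6 value columns were used; the third library per stage that the study describes was not analysed here. Collagen chains and gene lists were chosen with earlier results of these data known. Where a gene name was repeated, the first identifier listed was used.

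The 10279 genes whose mean reached 1 FPKM were fitted as log2(FPKM + 1) in R 4.3.3 with limma 3.58.1 (lmFit, eBayes with trend), with 1 mean per stage and Benjamini-Hochberg adjustment; the steps were tested on simulated data. Other steps used Python 3.11.15, pandas 2.3.3, numpy 2.4.6, matplotlib 3.10.9 and, for near-identical copies, blastn 2.17.0. Deviations from the stage mean correlated between same-numbered libraries at 0.238 (A-LMSC and PM-LMSC), 0.307 (A-LMSC and M-LMSC) and 0.491 (PM-LMSC and M-LMSC) across genes, so the numbers were taken to pair the libraries; the pairing comes from the data, as the labels give only numbers.

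Chains were named in full if called in any comparison with or without the block, if among the 4 most abundant of a class, or if among the 5 largest changes in each direction without overlap. Genes of the 4 lists on collagen processing, receptors, breakdown and fibril partners were named mainly if called, by the 2 highest or 2 lowest fold changes, or as the most abundant gene. Cell type markers were described by sums and by some genes. Those genes, Col18a1 in M-LMSC against A-LMSC, Col14a1 in PM-LMSC against A-LMSC, the chains under the level tested and some genes of the 4 lists were named after their values were seen. Alternatives were a pseudocount of 0.1, no filter, quantile normalization, median centring, only the 2 stages compared, the replicate block, each library left out, and for sums, rescaling and leaving out the most abundant chain. The mitochondrial gene mt-Co2 was listed at 0 in each of the 6 libraries.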

Additional observations from a re-analysis of the deposited data

Results flagged for a closer look

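For 3 chains, both PM-LMSC libraries were below both A-LMSC libraries while both M-LMSC libraries were above them, as for 1.78% of all genes tested. Their difference between the later stages, as a log2 fold change of M-LMSC over PM-LMSC, was 0.18 for Col16a1 (limma adjusted p = 0.662), 0.34 for Col5a2 (0.477) and 0.91 for Col18a1 (0.412). The 3 chains were picked by the order of these same libraries, so M-LMSC lay above PM-LMSC in each by selection. None of them passed the threshold in M-LMSC against PM-LMSC. That contrast does not test the fall below and rise above A-LMSC that defined them. With 2 libraries per stage, a check for a single library far from the rest of its group could not be applied.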

How the results depend on the processing

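The number of collagen chains called in PM-LMSC against A-LMSC was 0 under every alternative run, where limma without the block gave 4 chains at an unadjusted p under 0.05 and the block gave 7, where 6.53% and 13.8% of all genes reached this. In M-LMSC against A-LMSC it was 5 with the replicate block and ranged from 0 to 1 with each library left out in turn. In M-LMSC against PM-LMSC it ranged from 0 to 1 with each library left out. The 1 chain was Col18a1, without M-LMSC replicate 2, in both comparisons, where 0.876% and 0.243% of all genes were called. The replicate block changed no other call of a collagen chain than the 5 given with its values above. The ratios of summed FPKM over all chains and over the fibrillar chains moved by less than the spread between replicates in each alternative, which for PM-LMSC and M-LMSC is wide. Over all chains the PM-LMSC ratio still turned from 0.953 to 1.04 without Col1a1 and to 1.03 without PM-LMSC replicate 1, and the M-LMSC ratio was 1.34 without Col1a1. The fibrillar M-LMSC ratio turned from 1.14 to 0.892 without M-LMSC replicate 2. Other class sums moved by more. Without Col12a1 the FACIT ratio was 0.846 for PM-LMSC and 1.07 for M-LMSC over A-LMSC, and without Col8a1 that of the other chains was 0.928 and 0.956. Without Col4a1 the basement-membrane ratio of PM-LMSC was 1.40. For the other chains the PM-LMSC ratio was 0.962 with rescaling, 1.05 without A-LMSC replicate 1 and 0.899 without A-LMSC replicate 2, and the M-LMSC ratio was 1.33 without A-LMSC replicate 1.

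Of 34 log2 fold changes followed over 12 alternatives, 392 of the values kept direction and side of the threshold, 7 passed the threshold and 9 turned sign, all in M-LMSC against A-LMSC and none called. Centring on the library median gave -0.024 for Col14a1, and quantile normalization gave 0.18 for Col1a1. With each library left out, the range was -0.25 to 0.30 for Col14a1, -0.44 to 0.42 for Col1a1, -0.28 to 0.47 for Col1a2, -0.19 to 0.17 for Col6a1 and -0.027 to 0.26 for Col6a2. The cause was not tested.

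With 2 libraries per stage, the spread rests on few values, and where a library is left out the lone one is assumed to vary like the other stages. Depth limits the 25 chains under 1 FPKM, most of all those at the lowest levels, whose values rest on few fragments.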

Other observations

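Some chains at low levels were highest in M-LMSC replicate 2, and those below were picked after their values were seen. Col2a1, the fibrillar chain of cartilage, was listed at 0.0265 and 0.00789 FPKM in A-LMSC, 0 and 0.00869 in PM-LMSC, and 0.00834 and 0.183 in M-LMSC. Col9a1, a FACIT chain on cartilage fibrils, was listed at 0 in the other 5 libraries and at 0.126 there. Col6a5 and Col6a6, which share a near-identical stretch of 572 bases and are uncertain for that reason, were at 0.154 and 0.618 FPKM in that library and at no more than 0.0434 and 0.234 in any other. Of further chains known from cartilage, Col9a2 was also highest there, at 0.0826 FPKM, and Col9a3 was level with A-LMSC replicate 1, at 0.125 and 0.124. Col10a1 was lowest there, at 0.0385 FPKM against 0.0913 to 0.328 in the other libraries, and Col11a2 was at 0.362 there and at 0.494 in M-LMSC replicate 1.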
